A study of Homo sapiens with 24 samples.

Results

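The 8 genes described here are the Fc gamma receptors of macrophages and the proteins that carry their signal: the receptors FCGR1A, FCGR2A, FCGR2B and FCGR3A, the antibody recycling receptor FCGRT, the adaptors FCER1G and TYROBP, and the kinase SYK. They were chosen by name from a table of 58735 genes and not by a cut on their values, but with earlier results of these data known. All 8 were among the 13242 genes kept for testing, that is, at 1 FPKM or more in at least 4 of the 24 libraries. FCGR2B reached that level in exactly 4 libraries, all of them IL-4-treated controls, so a gene kept on those terms had to be higher there than elsewhere.

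Antibody bound to a particle engages Fc gamma receptors on macrophages and triggers phagocytosis and cytokine release. FCGR1A (the high-affinity receptor CD64) and FCGR3A (CD16a) have no signalling motif of their own and depend on the FCER1G chain, whose immunoreceptor tyrosine-based activation motif (ITAM) is phosphorylated by SRC-family kinases and then binds SYK. FCGR2A (CD32a) carries an ITAM in its own tail, whereas FCGR2B (CD32b) carries the inhibitory counterpart, the ITIM, and opposes the activating receptors. TYROBP (DAP12) is the equivalent adaptor of other myeloid receptors, and FCGRT, the heavy chain of the neonatal Fc receptor, pairs with B2M and returns internalised antibody to the cell surface.

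The cells were THP-1, a human monocytic leukaemia line, all differentiated into macrophages with phorbol 12-myristate 13-acetate (PMA, 20 nM) for 72 h. The groups were 2 lines in 3 states, with 4 RNA-seq libraries in each of the 6 groups. WT is the control line. CES1KD had carboxylesterase 1 (CES1) stably knocked down by a lentiviral shRNA. M0 was resting, M1 received LPS at 1 ug/ml together with interferon gamma at 100 ng/ml, and M2 received IL-4 at 100 ng/ml. The labels do not say what vector, if any, the WT cells carried, or whether the 4 libraries of a group came from separate cultures, so the p-values measure the spread between these libraries, which may be technical. The series asks what loss of CES1 does in each state.

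Libraries held 14881563 to 26671681 fragments on genes. The knockdown was present in the data: CES1 lay between 4.04 and 7.78 FPKM in the 12 WT libraries and between 0 and 0.124 FPKM in the 12 CES1KD libraries. Of 10 monocyte and macrophage markers, 9 reached 1 FPKM in some library and 8 were kept. CD68 did not reach 1 FPKM, at 0 to 0.113 FPKM. CSF1R lay at 123 to 364 FPKM and SPI1, the gene of the transcription factor PU.1, at 89.4 to 258 FPKM. CD14 ran from 1.39 to 52.7 FPKM and LYZ from 1.82 to 16.0 FPKM. Between the lines at rest the list was mixed, with 5 higher and 3 lower in CES1KD (limma adjusted p under 0.05, 28.1% and 26.3% of all genes kept). One library stood apart: in CES1KD M2 replicate 2, 25.61% of the genes kept differed by more than 0.5 on the log2 scale from the median of the other 3 libraries of its group, against 3.34% to 6.76% in the other 23 libraries. Results that rest on it are given with and without it.

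The activating receptor genes and their inhibitory neighbour lie close together on chromosome 1. In the table's coordinates (GRCh38), FCGR2A occupies chr1:161505430-161524013 on the plus strand, FCGR3A chr1:161541759-161550737 on the minus strand, FCGR2B chr1:161663147-161678654 on the plus strand, and FCER1G chr1:161215234-161220699 on the plus strand. FCGR1A lies apart at chr1:149782671-149792518 on the plus strand. On chromosome 19 are TYROBP (chr19:35904401-35908295, minus strand) and FCGRT (chr19:49506816-49526333, plus strand), and SYK is at chr9:90801787-90898549 on the plus strand.

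Promoter sequences of 5 of these genes are shown: the 2 activating receptors FCGR1A and FCGR2A, the inhibitory FCGR2B, and the 2 adaptors. Each runs 5′ to 3′ on the strand of the gene, from 250 bases before to 50 bases after the RefSeq start (GRCh38.p14). Capitals mark matches, on either strand, to TTCNNNGAA (a STAT motif), GAGGAA (the core bound by PU.1) or an interferon regulatory factor (IRF) motif, which is GAAA followed by any 2 bases and a second GAAA. The windows are chr1:149782444-149782743 for FCGR1A, chr1:161505207-161505506 for FCGR2A, chr1:161662893-161663192 for FCGR2B, chr1:161215045-161215344 for FCER1G (all plus strand) and chr19:35908246-35908545 for TYROBP (minus strand).
FCGR1A: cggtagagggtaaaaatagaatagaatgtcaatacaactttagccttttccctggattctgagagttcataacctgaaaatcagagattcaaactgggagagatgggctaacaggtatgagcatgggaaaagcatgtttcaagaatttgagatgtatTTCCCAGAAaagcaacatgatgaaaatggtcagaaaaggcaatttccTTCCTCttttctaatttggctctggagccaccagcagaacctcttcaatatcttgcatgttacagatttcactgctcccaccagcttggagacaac
FCGR2A: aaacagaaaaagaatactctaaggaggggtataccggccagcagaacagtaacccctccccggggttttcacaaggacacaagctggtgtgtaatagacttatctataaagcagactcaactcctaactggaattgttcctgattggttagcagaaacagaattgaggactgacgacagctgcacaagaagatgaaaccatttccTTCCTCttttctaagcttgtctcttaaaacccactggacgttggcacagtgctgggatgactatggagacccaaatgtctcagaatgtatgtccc
FCGR2B: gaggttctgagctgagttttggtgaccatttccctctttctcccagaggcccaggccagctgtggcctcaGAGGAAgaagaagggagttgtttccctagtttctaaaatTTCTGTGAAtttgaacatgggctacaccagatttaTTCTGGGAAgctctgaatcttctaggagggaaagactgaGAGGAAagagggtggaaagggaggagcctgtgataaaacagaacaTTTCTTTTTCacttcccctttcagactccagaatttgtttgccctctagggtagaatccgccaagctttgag
FCER1G: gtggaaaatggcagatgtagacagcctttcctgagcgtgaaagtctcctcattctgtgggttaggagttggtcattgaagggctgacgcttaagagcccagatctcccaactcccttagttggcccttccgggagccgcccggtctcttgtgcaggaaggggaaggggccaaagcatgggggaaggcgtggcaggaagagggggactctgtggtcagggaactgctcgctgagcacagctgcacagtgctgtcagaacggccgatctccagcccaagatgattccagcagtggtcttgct
TYROBP: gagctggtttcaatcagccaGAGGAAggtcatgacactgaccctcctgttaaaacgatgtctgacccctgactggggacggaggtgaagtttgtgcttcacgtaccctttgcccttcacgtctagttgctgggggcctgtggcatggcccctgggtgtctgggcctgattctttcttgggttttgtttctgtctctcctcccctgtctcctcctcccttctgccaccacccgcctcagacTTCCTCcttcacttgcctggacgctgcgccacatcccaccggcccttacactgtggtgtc

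The STAT motif matched in 7.66% of 35116 RefSeq promoter windows of the same length, the PU.1 core in 27.9% and the IRF motif in 3.57%. In the FCGR1A window, TTCCCAGAA lay at positions -93 to -85, counted from the start. Textbook work places an interferon gamma response element in this promoter. The FCGR2A window held no STAT match, but it shared with FCGR1A the 20-base stretch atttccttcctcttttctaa, which contains the PU.1 core and began at -52 in FCGR1A and -51 in FCGR2A. No other of the 35116 windows held that stretch. FCGR2B had a pair of STAT matches, TTCTGTGAA and TTCTGGGAA, a pair of PU.1 cores and an IRF match, TTTCTTTTTC. TYROBP had PU.1 cores at -230 and -10, and the FCER1G window contained none of the 3 motifs. A match describes letters in a window and not a bound site.

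Levels of the 8 genes, per unit of gene length, ranged from 0.161 FPKM (FCGR2B in a CES1KD M0 library) to 884 FPKM (FCER1G in a WT M0 library). FCER1G and TYROBP were among the most abundant transcripts: in WT M0 they ranked 19 and 47 of 10946 protein-coding genes kept. SYK ranked 620, FCGRT 994 and FCGR1A 2426. The other receptor genes were low, with FCGR2A at rank 7573, FCGR3A at 10008 and FCGR2B at 10776. All values are bulk measurements, in which fewer cells of a type and less RNA per cell cannot be told apart.

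**Figure D1:**
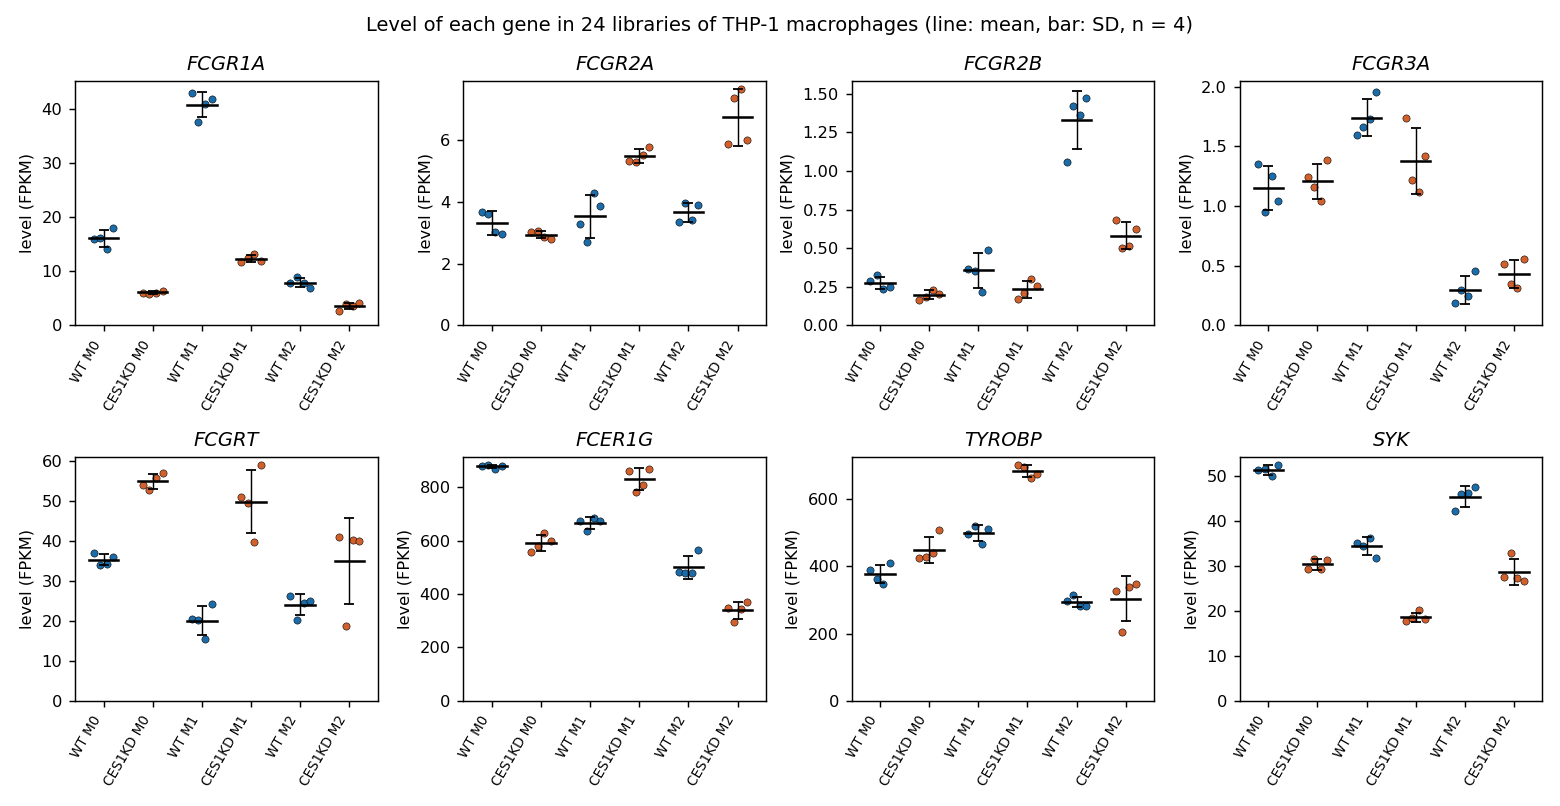
FPKM of each of the 8 genes (vertical axis, linear, from 0) in every library of the 6 groups (horizontal axis; blue points WT, orange points CES1KD), with the group mean as a line and the SD as a bar (n = 4). FCGR1A and SYK were lower in CES1KD than in WT in each state, FCGRT was higher on average, and CES1KD M2 replicate 2 is the low point for FCGRT (18.8 FPKM) and TYROBP (204 FPKM).

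FCGR1A was lower in CES1KD than in WT in each state, and in both lines it was higher after LPS with interferon gamma and lower after IL-4. The WT M0 libraries held 16.0, 16.2, 14.1 and 18.0 FPKM, and the CES1KD M0 libraries 6.03, 5.86, 5.94 and 6.38 FPKM. The WT M1 libraries held 43.0, 37.6, 40.9 and 41.9 FPKM, and the CES1KD M1 libraries 11.6, 12.4, 13.2 and 11.9 FPKM. The WT M2 libraries held 7.89, 8.92, 7.87 and 6.84 FPKM, and the CES1KD M2 libraries 2.70, 3.93, 3.59 and 4.08 FPKM. WT and CES1KD did not overlap in any state, and stimulated CES1KD M1 cells stayed below resting WT cells (means of 12.3 ± 0.679 and 16.1 ± 1.59 FPKM, SD, n = 4). FCGR1A fell with the knockdown by 1.27 ± 0.09, 1.65 ± 0.09 and 0.96 ± 0.09 (SE) in the resting, M1 and M2 states on the log2(FPKM + 1) scale (limma, Benjamini-Hochberg adjusted p = 3.61e-11, 3.87e-13 and 4.35e-09). The 6 groups, ordered WT M1, WT M0, CES1KD M1, WT M2, CES1KD M0 and CES1KD M2, differed from each neighbour in that order (limma adjusted p at most 0.00297).

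Within each line FCGR1A moved in opposite directions with the stimuli. It rose with LPS and interferon gamma by 1.30 ± 0.09 in WT and 0.91 ± 0.09 in CES1KD, and fell with IL-4 by 0.94 ± 0.09 and 0.63 ± 0.09 (log2, limma adjusted p at most 7.18e-06). These comparisons share their M0 libraries. The knockdown difference was larger in M1 than in M0 by -0.38 ± 0.12 (limma adjusted p = 0.0272). That call was lost when WT M0 replicate 3, WT M1 replicate 1, CES1KD M0 replicate 4 or CES1KD M1 replicate 1 was left out (-0.36 to -0.32, adjusted p 0.0537 to 0.0677), with 0.1 in place of 1 added before the logarithm (-0.33, adjusted p = 0.105), with no filter on low values (-0.38, adjusted p = 0.0603) and with limma voom on fragments (-0.33, adjusted p = 0.0675). The effect in M2 minus that in M0 was 0.31 ± 0.12 (limma adjusted p = 0.163), and 0.41 without CES1KD M2 replicate 1 (adjusted p = 0.0201).

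FCGR1A has near-identical copies, FCGR1B and the pseudogene FCGR1CP, and the sources used here do not say how fragments that match several copies were assigned. FCGR1B also fell in CES1KD, by 1.33 ± 0.07, 2.29 ± 0.07 and 1.75 ± 0.07 in M0, M1 and M2 (limma adjusted p at most 1.20e-12). As ratios of mean FPKM these were 0.174, 0.121 and 0.177. The added 1 shrinks log2 differences of genes at low levels, so M0 and M2 differ less than the log2 values read. With IL-4, however, the 2 genes parted: in WT, FCGR1B went from 2.69 ± 0.225 to 5.89 ± 0.234 FPKM (log2 difference 0.90 ± 0.07, limma adjusted p = 2.64e-09) while FCGR1A fell. The ratio of FCGR1A to FCGR1B, a geometric mean over libraries, was 5.97, 4.21 and 1.33 in the WT M0, M1 and M2 groups, against 13.1, 10.4 and 3.38 in CES1KD. On the opposite strand of FCGR1A the table holds HIST2H2BF and AC243772.2, which overlap it and did not exceed 5.52 FPKM. AL590385.2 overlaps FCGR2A on the same strand (10838 bases) and FCGR3A on the opposite strand (8979 bases). It lay at 0 to 0.357 FPKM, while FCGR3A was as low as 0.183 FPKM in WT M2. The labels do not state whether counting used the strand, so fragments of such overlapping genes may not be separable.

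The chromosome region around FCGR1A differed in the other direction. Of the 74 kept genes that start within 2 Mb of FCGR1A, 52, 55 and 50 were called higher in CES1KD in M0, M1 and M2 and 3, 1 and 2 lower, with medians of 0.52, 0.55 and 0.51 on the log2 scale. The 49 neighbours of the FCGR2A, FCGR3A and FCGR2B cluster had medians of 0.19, 0.28 and 0.22, as had those of FCER1G. Around FCGRT, the medians over 89 genes were 0.10, 0.16 and -0.03. Around TYROBP the medians lay between -0.11 and -0.02 over 52 genes, and around SYK between -0.02 and 0.02 over 15. The median over all genes kept was between -0.01 and 0. What part a regional difference between the lines has in any receptor's value was not tested.

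FCGR2A was higher in stimulated CES1KD cells alone among the groups. The WT M0 libraries held 3.67, 3.62, 3.01 and 2.97 FPKM and the CES1KD M0 libraries 3.01, 3.04, 2.86 and 2.81 FPKM, so the lines overlapped at rest (log2 difference -0.13 ± 0.09, limma adjusted p = 0.246). The WT M1 libraries held 3.27, 2.69, 4.28 and 3.88 FPKM, below the 5.31, 5.30, 5.53 and 5.79 FPKM of CES1KD M1. The WT M2 libraries held 3.36, 3.96, 3.41 and 3.89 FPKM, again below the 5.89, 7.38, 7.67 and 6.02 FPKM of CES1KD M2. FCGR2A was thus higher in CES1KD by 0.53 ± 0.09 in M1 and 0.73 ± 0.09 in M2 (limma adjusted p = 5.35e-05 and 9.96e-07). The difference from M0 passed its own test in both states, at 0.66 ± 0.13 for M1 and 0.86 ± 0.13 for M2 (limma adjusted p = 0.000746 and 0.000150). In WT neither stimulus gave a call (0.06 ± 0.09 and 0.11 ± 0.09, adjusted p = 0.631 and 0.444), and the first of these turned to -0.14 when libraries were scaled to total fragments and to -0.02 without WT M1 replicate 3. In CES1KD FCGR2A rose by 0.72 ± 0.09 with LPS and interferon gamma and by 0.97 ± 0.09 with IL-4 (limma adjusted p = 1.47e-06 and 4.77e-08).

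FCGR2B, the inhibitory receptor, was scarce except after IL-4. At rest it lay at 0.273 ± 0.0413 FPKM in WT and 0.196 ± 0.0293 FPKM in CES1KD, and in M1 at 0.355 ± 0.111 and 0.232 ± 0.0567 FPKM (SD, n = 4). The fewest FCGR2B fragments in any of the 24 libraries were 21. The WT M2 libraries held 1.06, 1.42, 1.36 and 1.47 FPKM and the CES1KD M2 libraries 0.682, 0.503, 0.512 and 0.625 FPKM, and these groups overlapped neither each other nor any of the remaining 4. IL-4 raised FCGR2B by 0.87 ± 0.08 in WT and 0.40 ± 0.08 in CES1KD (limma adjusted p = 1.48e-08 and 0.000600), 4.85-fold and 2.97-fold in mean FPKM. The filter kept the gene on its WT M2 level alone, so differences that set WT M2 against another group, CES1KD M2 included, were favoured by that choice and their tests are not independent of it. The knockdown differences in M0 and M1 were -0.09 ± 0.08 and -0.14 ± 0.08 (limma adjusted p = 0.354 and 0.155), with ratios of mean FPKM of 0.716 and 0.652. The lines did not overlap in M0, as for 59.3% of genes kept, and overlapped in M1. Adding 1 shrinks log2 differences at such low levels. In M2 FCGR2B was lower in CES1KD by -0.56 ± 0.08 (limma adjusted p = 3.96e-06), a ratio of mean FPKM of 0.437. This knockdown effect differed from that in M0 by -0.47 ± 0.11 (limma adjusted p = 0.0120), but not with 0.1 added before the logarithm (-0.73, adjusted p = 0.219) or with limma voom on fragments (-0.67, adjusted p = 0.303). FCGR2B is also a receptor of B cells. Of 6 B cell markers, PAX5 and CD22 reached 1 FPKM, MS4A1 did not exceed a group mean of 0.0179 FPKM, and the list summed to 15.4 to 16.7 FPKM in WT M0, 5.25 to 6.04 in WT M2 and 2.13 to 3.13 in CES1KD M2. Its part in the FCGR2B values was not tested.

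The balance of activating FCGR2A to inhibitory FCGR2B within a library depends on no library scaling. In WT the ratio lay between 11.1 and 12.8 in M0 and between 2.51 and 3.18 in M2. In CES1KD it lay between 12.4 and 18.7 in M0 and between 8.64 and 15.0 in M2. Every CES1KD M2 library was therefore above every WT M2 library. Because the filter kept FCGR2B on its WT M2 level alone, the low WT M2 ratio and this separation were favoured by that choice. M1 ratios were 7.72 to 19.7 in WT and 18.4 to 31.3 in CES1KD and overlapped. No test was made on the ratios. The third gene of this subfamily, the pseudogene FCGR2C, collected 190 fragments in all 24 libraries together, and fragments shared among the 3 copies may have been split between them.

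**Figure D2:**
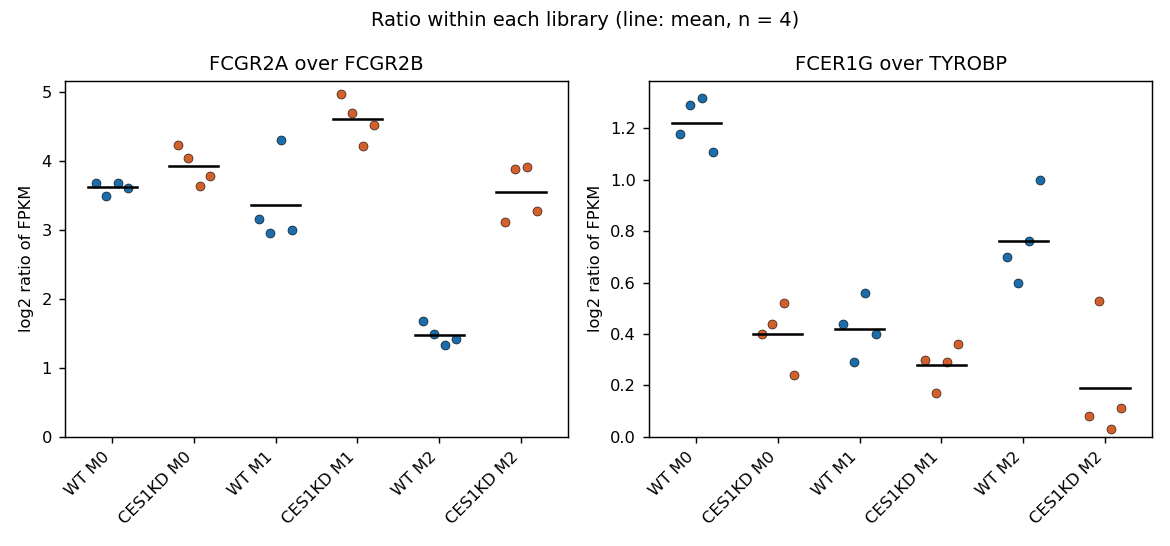
Log2 ratio of FPKM (vertical axis, from 0) of FCGR2A to FCGR2B (left) and of FCER1G to TYROBP (right) in every library of the 6 groups (blue WT, orange CES1KD; line, mean of n = 4). The FCGR2A to FCGR2B ratio is lowest in WT M2, the group on whose level alone the filter kept FCGR2B. The FCER1G to TYROBP ratio is highest in WT M0.

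FCGR3A, the CD16a receptor best known from natural killer cells, followed the state and showed no called difference between the lines. The WT M0 libraries held 1.35, 0.949, 1.25 and 1.04 FPKM, the M1 libraries 1.60, 1.66, 1.73 and 1.96 FPKM, and the M2 libraries 0.183, 0.296, 0.241 and 0.457 FPKM. CES1KD averaged 1.21 ± 0.147, 1.38 ± 0.275 and 0.432 ± 0.119 FPKM in the same states and overlapped WT in each. The knockdown differences were 0.04 ± 0.09, -0.21 ± 0.09 and 0.15 ± 0.09 in the 3 states (limma adjusted p = 0.742, 0.0585 and 0.199). The M1 difference was called with a replicate block (-0.21, limma adjusted p = 0.0421), without CES1KD M1 replicate 1 (-0.28, adjusted p = 0.0152) and with scaling to total fragments (-0.25, adjusted p = 0.0277). The M0 value turned to -0.01 without WT M0 replicate 2 and to -0.0049 with that scaling. FCGR3A fell with IL-4 by 0.73 ± 0.09 in WT and 0.63 ± 0.09 in CES1KD (limma adjusted p = 2.04e-06 and 1.98e-05), or to 0.256 and 0.358 of its M0 mean in FPKM, leaving as few as 9 fragments in a library. Its rise with LPS and interferon gamma in WT (0.35 ± 0.09, limma adjusted p = 0.00322) was lost with scaling to total fragments (0.20, adjusted p = 0.0680). The neutrophil copy FCGR3B had 5 fragments in 4 of the 24 libraries. Of 7 natural killer cell markers, KLRF1, NKG7 and GNLY reached 1 FPKM, and their list summed to 3.79 to 9.27 FPKM over all libraries (3.89 to 5.74, 5.84 to 8.21 and 4.94 to 6.11 in the WT groups, by state). NCAM1 and NCR1 did not exceed a group mean of 0.477 and 0.527 FPKM. The part of this list in the FCGR3A values was not tested.

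FCGRT, the recycling receptor, was higher in CES1KD. The WT M0 libraries held 36.9, 34.1, 34.2 and 36.0 FPKM and the CES1KD M0 libraries 53.9, 52.8, 55.7 and 57.0 FPKM. The WT M1 libraries held 20.6, 20.2, 15.5 and 24.2 FPKM and the CES1KD M1 libraries 50.9, 49.5, 39.7 and 58.9 FPKM. The WT M2 libraries held 26.2, 20.3, 24.6 and 25.1 FPKM and the CES1KD M2 libraries 41.0, 18.8, 40.2 and 39.9 FPKM. The lines did not overlap in M0 or M1, and in M2 they overlapped through CES1KD replicate 2 alone. The knockdown differences were 0.62 ± 0.18, 1.27 ± 0.18 and 0.46 ± 0.18 in M0, M1 and M2 (limma adjusted p = 0.00502, 2.42e-06 and 0.0322). Without CES1KD M2 replicate 2 the M2 difference was 0.73 ± 0.12 (limma adjusted p = 1.56e-05), and with it the M2 call was lost when WT M2 replicate 2 or CES1KD M2 replicate 1, 3 or 4 was left out (0.37 to 0.39, adjusted p 0.0984 to 0.110), when the 2 groups were fitted alone (0.46, adjusted p = 0.152) and with no filter on low values (0.46, adjusted p = 0.0805).

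FCGRT fell in stimulated WT cells, by 0.80 ± 0.18 in M1 and 0.54 ± 0.18 in M2 (limma adjusted p = 0.000716 and 0.0263). The M2 call was lost without WT M0 replicate 1 or 4 or WT M2 replicate 2 (-0.53 to -0.46, adjusted p 0.0531 to 0.0866), and was firmer without CES1KD M2 replicate 2 (-0.54, adjusted p = 0.000448). In CES1KD the M1 difference from M0 was -0.15 ± 0.18 (limma adjusted p = 0.522) and IL-4 lowered FCGRT by 0.70 ± 0.18 (adjusted p = 0.00524, or 0.0849 with the 2 groups fitted alone), and by 0.43 ± 0.12 without replicate 2 (adjusted p = 0.00765). The knockdown effect in M1 exceeded that in M0 by 0.64 ± 0.25, which was not called with all libraries (limma adjusted p = 0.0680) and was called without CES1KD M2 replicate 2 (0.64 ± 0.15, adjusted p = 0.00245), WT M1 replicate 4 (0.73, adjusted p = 0.0429) or CES1KD M1 replicate 3 (0.75, adjusted p = 0.0387). With all libraries of the groups compared it was called by limma voom on fragments (0.68, adjusted p = 0.0463) and with the 4 groups fitted alone (0.64, adjusted p = 0.00668). A replicate block called it too (0.64, limma adjusted p = 0.0405). B2M, the light chain that FCGRT needs to leave the endoplasmic reticulum, was also higher in CES1KD, by 1.47 ± 0.06 at rest, 0.38 ± 0.06 with LPS and interferon gamma and 1.38 ± 0.06 with IL-4 (limma adjusted p at most 5.24e-06). Its level rose in WT from 226 ± 9.07 to 1080 ± 55.3 FPKM with LPS and interferon gamma, whereas FCGRT fell.

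FCER1G, the chain through which FCGR1A and FCGR3A signal, was the one gene of the 8 whose knockdown difference changed sign between called states. Resting WT libraries held 879, 884, 869 and 880 FPKM and the CES1KD M0 libraries 559, 580, 629 and 598 FPKM. With LPS and interferon gamma, WT libraries held 672, 634, 684 and 672 FPKM, now below the 860, 782, 809 and 867 FPKM of CES1KD M1. With IL-4, WT libraries held 481, 478, 477 and 565 FPKM and the CES1KD M2 libraries 346, 294, 345 and 372 FPKM. The lines did not overlap in any state. FCER1G was lower in CES1KD by -0.57 ± 0.06 at rest and -0.56 ± 0.06 with IL-4, and higher by 0.32 ± 0.06 with LPS and interferon gamma (limma adjusted p = 1.30e-07, 1.85e-07 and 0.000239). The M1 effect differed from the M0 effect by 0.89 ± 0.09 (limma adjusted p = 1.78e-07). With LPS and interferon gamma it fell in WT by 0.40 ± 0.06 and rose in CES1KD by 0.49 ± 0.06 (limma adjusted p = 2.14e-05 and 1.84e-06). IL-4 lowered it in both lines, by 0.81 ± 0.06 and 0.80 ± 0.06 (limma adjusted p = 1.36e-09 and 2.39e-09). FCER1G is also a chain of the mast cell IgE receptor. Of 6 mast cell and basophil markers, KIT, TPSAB1 and GATA2 reached 1 FPKM, CPA3 was at 0 in all libraries and MS4A2 did not exceed a group mean of 0.0246 FPKM. That list summed to 14.9 to 17.6, 11.5 to 14.6 and 9.02 to 11.6 FPKM in the 3 WT groups, against 2.10 to 2.59, 1.32 to 1.81 and 1.62 to 2.40 FPKM in CES1KD. Its part in the FCER1G values was not tested.

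TYROBP was higher in CES1KD in M1, and with all libraries it had no called difference in M0 or M2. Resting WT libraries held 389, 362, 348 and 409 FPKM and the CES1KD M0 libraries 424, 427, 439 and 507 FPKM. With LPS and interferon gamma, WT libraries held 495, 520, 465 and 511 FPKM and the CES1KD M1 libraries 700, 696, 662 and 675 FPKM. With IL-4, WT libraries held 296, 316, 282 and 283 FPKM and the CES1KD M2 libraries 327, 204, 338 and 346 FPKM. CES1KD libraries lay above WT in M0 and M1 without overlap, and in M2 all but replicate 2 did so. The difference was called in M1 (0.46 ± 0.11, limma adjusted p = 0.00152), but not in M0 (0.25 ± 0.11, adjusted p = 0.0658) or M2 (0.01 ± 0.11, adjusted p = 0.925). Without CES1KD M2 replicate 2 the values were 0.46, 0.25 and 0.20 in M1, M0 and M2, and all 3 were called (limma adjusted p = 7.17e-07, 0.000874 and 0.0122). The M0 difference was also called with limma voom on fragments (0.25, adjusted p = 0.0471) and with the 2 groups fitted alone (0.25, adjusted p = 0.0122). The M2 value with all libraries turned negative with scaling to total fragments (-0.00464) and when WT M2 replicate 3 or 4 or CES1KD M2 replicate 1, 3 or 4 was left out (-0.06 to -0.00294).

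With LPS and interferon gamma TYROBP rose by 0.40 ± 0.11 in WT and 0.61 ± 0.11 in CES1KD (limma adjusted p = 0.00542 and 0.000129), of which the WT call was lost with scaling to total fragments (0.15, adjusted p = 0.292). With IL-4 it fell by 0.35 ± 0.11 in WT and 0.59 ± 0.11 in CES1KD (limma adjusted p = 0.0223 and 0.000402), or by 0.41 in CES1KD without replicate 2. The CES1KD fall was not called with the 2 groups fitted alone (-0.59, adjusted p = 0.0520). The WT fall with IL-4 lost its call when WT M0 replicate 1 or 4 or WT M2 replicate 3 or 4 was left out (-0.34 to -0.32, adjusted p 0.0556 to 0.0672), and had an adjusted p of 5.91e-05 without CES1KD M2 replicate 2 (limma). Within libraries the ratio of FCER1G to TYROBP lay between 2.15 and 2.50 in WT M0, fell short of that in WT M1 (1.22 to 1.47) and was intermediate in WT M2 (1.51 to 2.00). The CES1KD libraries ran from 1.18 to 1.43 at rest, from 1.12 to 1.28 with LPS and interferon gamma, and from 1.02 to 1.44 with IL-4, the last of these being replicate 2. In M0 and M2 the lines therefore did not overlap.

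SYK, the kinase that both adaptors recruit, was lower in CES1KD in each state. Resting WT libraries held 51.2, 51.6, 50.0 and 52.5 FPKM and the CES1KD M0 libraries 29.4, 31.6, 29.3 and 31.4 FPKM. With LPS and interferon gamma, WT libraries held 35.1, 34.5, 36.3 and 31.8 FPKM and the CES1KD M1 libraries 17.8, 18.5, 20.1 and 18.1 FPKM. With IL-4, WT libraries held 42.1, 45.9, 46.2 and 47.6 FPKM and the CES1KD M2 libraries 27.6, 32.9, 27.2 and 26.7 FPKM. No CES1KD library reached the lowest WT library of its state. SYK fell by 0.74 ± 0.06, 0.85 ± 0.06 and 0.65 ± 0.06 in M0, M1 and M2 (limma adjusted p = 6.20e-10, 5.82e-11 and 5.20e-09), and the effect in M1 or M2 did not differ from that in M0 beyond the spread (-0.11 ± 0.08 and 0.08 ± 0.08, adjusted p = 0.382 and 0.710). LPS with interferon gamma lowered SYK in both lines, by 0.57 ± 0.06 and 0.68 ± 0.06 (limma adjusted p = 5.43e-08 and 3.83e-09). With IL-4 the difference was -0.17 ± 0.06 in WT (limma adjusted p = 0.0343) and -0.09 ± 0.06 in CES1KD (adjusted p = 0.324). The WT call was lost without any one of WT M0 replicates 1, 2 and 4 and WT M2 replicates 1, 2 and 3 (-0.18 to -0.14, adjusted p 0.0509 to 0.118). Without CES1KD M2 replicate 2 it held (-0.17, adjusted p = 0.00605), and the CES1KD difference was then called too (-0.16, adjusted p = 0.0244).

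The counts over the 8 genes are set beside the share of all genes called in the same comparison. In M0, 4 of 8 were called against 54.3% of all genes kept, with FCGRT higher (28.1% of genes) and FCGR1A, FCER1G and SYK lower (26.3%). In M1, 6 of 8 were called against 57.2%, 4 of them higher (28.5%) and 2 lower (28.7%). In M2, 6 of 8 were called against 52.3%, 2 of them higher (25.6%) and 4 lower (26.7%), FCGR2B among the latter with the limit given above on its filter. Without CES1KD M2 replicate 2 the counts were 5, 6 and 7, and the shares of all genes 60.1%, 62.4% and 55.8%. The libraries of the lines did not overlap for 6, 6 and 5 of the 8 genes, against 59.3%, 50.1% and 42.2% of genes kept. FCGR1A, FCGRT and SYK were called in one direction in all 3 states, as were 34.2% of the genes kept. Of the 8, 3 had a knockdown effect in M1 that differed from that in M0 (FCER1G, FCGR2A and FCGR1A) against 23.6% of genes, and 2 had one in M2 that differed from M0 (FCGR2A and FCGR2B) against 6.65%. The FCGR2B call there is under the same limit on its filter. It was lost with 0.1 added before the logarithm and with limma voom on fragments.

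**Figure D3:**
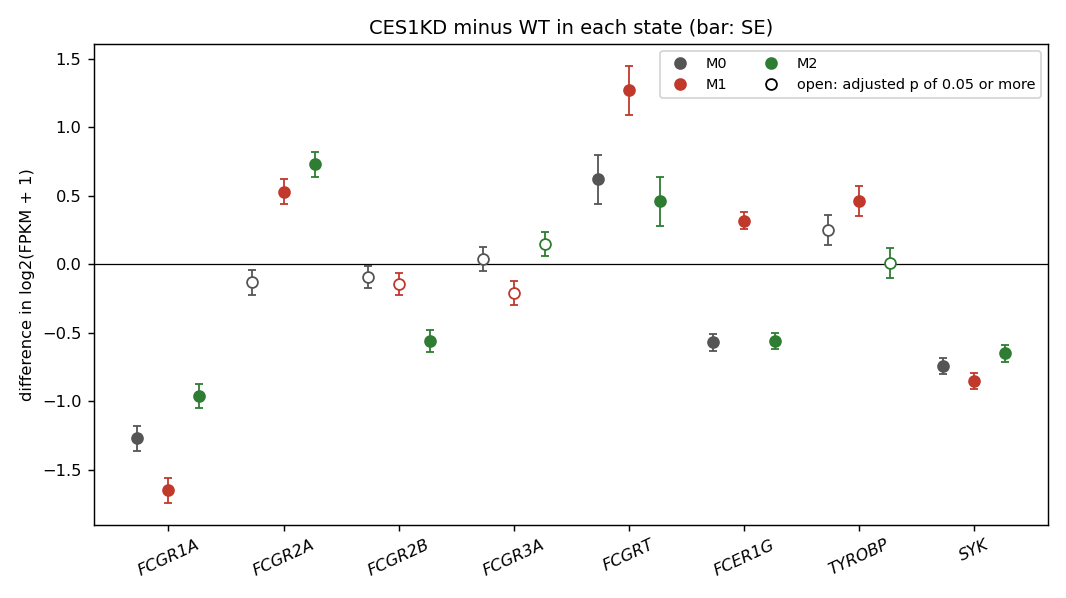
CES1KD minus WT in log2(FPKM + 1) (vertical axis) for each of the 8 genes in M0 (grey), M1 (red) and M2 (green); bars are SE from limma and open points have an adjusted p of 0.05 or more. FCGR1A and SYK lie below 0 in each state, FCGRT above 0, and FCER1G lies at -0.57, 0.32 and -0.56.

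Against M0 in WT, 6 of 8 were called in M1 (48.1% of all genes), 3 higher (26.4%) and 3 lower (21.8%). In M2, 7 of 8 were called (27.1%), FCGR2B higher (14.6%) and 6 lower (12.5%). The filter kept FCGR2B on its WT M2 level alone, so its call and its lack of overlap in WT M2 were favoured by that choice. In CES1KD, 5 of 8 were called in M1 (44.7%), 4 higher (24.9%) and 1 lower (19.8%). In CES1KD M2, 7 of 8 were called (22.8%), FCGR2A and FCGR2B higher (11.3%) and 5 lower (11.5%). Libraries of the stimulated and resting groups did not overlap for 6 and 7 of the 8 genes in WT (47.2% and 33.4% of genes) and for 5 and 7 in CES1KD (45.5% and 23.1%). The M2 count in WT was 4 without WT M0 replicate 1 or 4 and with no filter on low values, where SYK, TYROBP and FCGRT were not called. With scaling to total fragments the median of all genes in M1 minus M0 was -0.20 in WT and -0.18 in CES1KD, against 0 and 0.01 without it. No called direction of the 8 genes turned under that scaling.

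**Figure D4:**
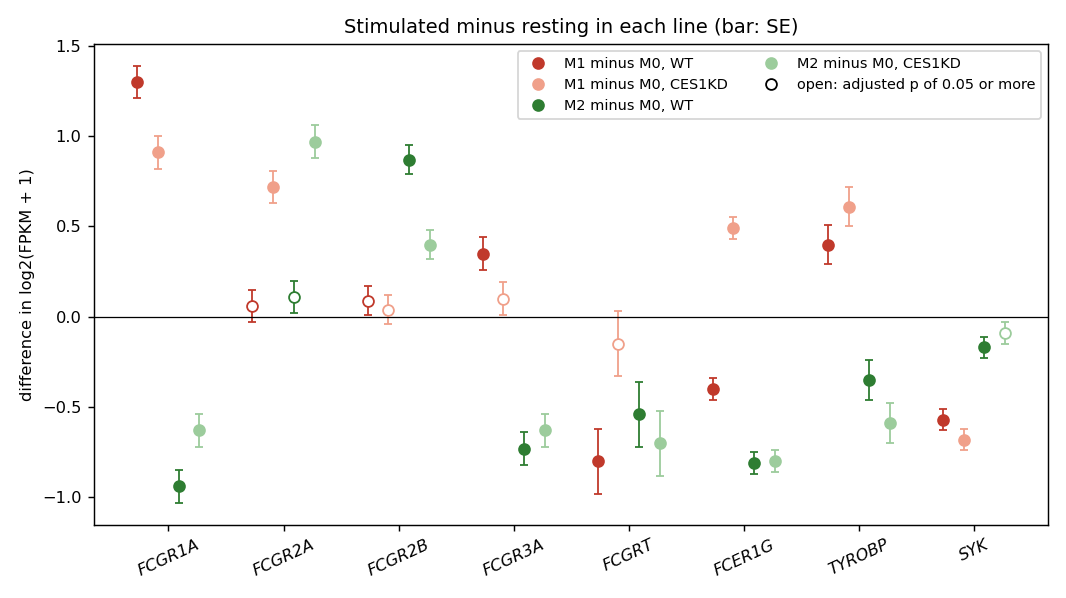
Difference from M0 in log2(FPKM + 1) (vertical axis) for each of the 8 genes after LPS with interferon gamma (red) or IL-4 (green) in WT (dark) and CES1KD (light); bars are SE from limma and open points have an adjusted p of 0.05 or more. FCGR2A was called in CES1KD (0.72 and 0.97) and not in WT (0.06 and 0.11), and FCER1G moved down in WT M1 (-0.40) and up in CES1KD M1 (0.49).

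The signalling genes downstream were mixed. Of 18 kinases and adaptors of Fc receptor signalling, all kept, 5 were higher and 7 lower in CES1KD M0 (28.1% and 26.3% of all genes kept; median -0.08 on the log2 scale, against 0 over all genes), 5 and 9 in M1 (28.5% and 28.7% of all genes; median -0.19), and 4 and 9 in M2 (25.6% and 26.7%; median -0.18). The shares of all genes are the same for the lists that follow. PLCG2, the phospholipase that SYK activates, was lower by -0.75 ± 0.04, -0.55 ± 0.04 and -0.64 ± 0.04 in M0, M1 and M2. PIK3CD, a catalytic subunit of PI 3-kinase, was lower by -1.11 ± 0.07, -0.98 ± 0.07 and -0.53 ± 0.07, and LCP2 (SLP-76), a scaffold for these enzymes, by -0.39 ± 0.08, -0.78 ± 0.08 and -1.15 ± 0.08 (limma adjusted p at most 0.000138 for these 9 differences). The SRC-family kinases that phosphorylate the ITAM were split: FYN was higher by 0.89 ± 0.05, 0.89 ± 0.05 and 0.60 ± 0.05, and LYN by 0.51 ± 0.05, 0.46 ± 0.05 and 0.61 ± 0.05 (limma adjusted p at most 9.39e-08). FGR, named after its values were seen, was lower in M0 by -0.41 ± 0.12 (limma adjusted p = 0.00640) and had no call in M1 or M2 (0.23 ± 0.12 and -0.12 ± 0.12, adjusted p = 0.106 and 0.446). In WT, LPS with interferon gamma raised 9 of the 18 and lowered 4 (26.4% and 21.8% of all genes; median 0.23), with LYN at 1.71 ± 0.05 and LCP2 at 1.31 ± 0.08, while SYK fell.

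Of 16 inhibitory phosphatases and ITIM receptors, 14 were kept, and 4 were higher and 6 lower in CES1KD M0 (median -0.13), 6 and 6 in M1 (median 0.01), and 5 and 4 in M2 (median -0.05). INPP5D (SHIP1), the lipid phosphatase that FCGR2B recruits, was lower by -0.34 ± 0.04, -0.32 ± 0.04 and -0.38 ± 0.04. PTPN6 (SHP-1), a tyrosine phosphatase recruited by ITIMs, was higher by 0.53 ± 0.08, 0.45 ± 0.08 and 0.63 ± 0.08, and so was SIRPA, the CD47 receptor that restrains phagocytosis, by 0.63 ± 0.04, 0.70 ± 0.04 and 0.59 ± 0.04 (limma adjusted p at most 4.14e-05 for these genes). DOK3, an adaptor that restrains immunoreceptor signalling, was lower by -0.89 ± 0.10, -0.79 ± 0.10 and -1.20 ± 0.10 (limma adjusted p at most 4.33e-07).

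The receptors that use the adaptors were split as well. Of 9 that pair with TYROBP, 6 were kept, with 1 higher and 4 lower in CES1KD at rest, 2 in each direction with LPS and interferon gamma, and 1 higher and 3 lower with IL-4 (medians -0.43, 0.05 and -0.53). CD300LB was lower by -1.75 ± 0.11, -1.49 ± 0.11 and -0.82 ± 0.11 and SIRPB1 by -1.41 ± 0.07, -0.47 ± 0.07 and -0.85 ± 0.07 (limma adjusted p at most 8.98e-06). CLEC5A was higher by 0.82 ± 0.07 in M0 and 0.27 ± 0.07 in M2 (limma adjusted p = 3.99e-09 and 0.00462), and TREM2 by 0.42 ± 0.16 in M1 (adjusted p = 0.0246). Of 10 that pair with FCER1G, 6 were kept, with 2 higher and 2 lower at rest and with LPS and interferon gamma, and 2 higher and 3 lower with IL-4 (medians -0.16, -0.04 and -0.23). LILRA1 was lower in CES1KD by -1.09 ± 0.12, -0.44 ± 0.12 and -0.49 ± 0.12 and LILRA2 by -1.44 ± 0.07 at rest and -0.80 ± 0.07 with IL-4 (limma adjusted p at most 0.00250), and FCER1A by -3.93 ± 0.09 with IL-4 (limma adjusted p = 5.46e-19). FCAR, the IgA receptor, was higher in CES1KD by 1.75 ± 0.12, 2.23 ± 0.12 and 1.06 ± 0.12 (limma adjusted p at most 1.30e-07). Its mean level was 1.31 ± 0.0519 FPKM in WT M0 and 6.74 ± 0.424 FPKM in CES1KD M0, and 3.31 ± 0.858 against 19.0 ± 1.87 FPKM in M1. Among 11 other Fc receptor genes and copies in the table, 9 were kept, with 4 higher and 1 lower at rest, 1 higher and 3 lower with LPS and interferon gamma, and 2 higher and 3 lower with IL-4 (medians 0.18, -0.21 and 0.03). TRIM21, the cytosolic antibody receptor, was higher by 0.78 ± 0.07, 0.41 ± 0.07 and 0.89 ± 0.07 (limma adjusted p at most 2.87e-05).

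**Figure D5:**
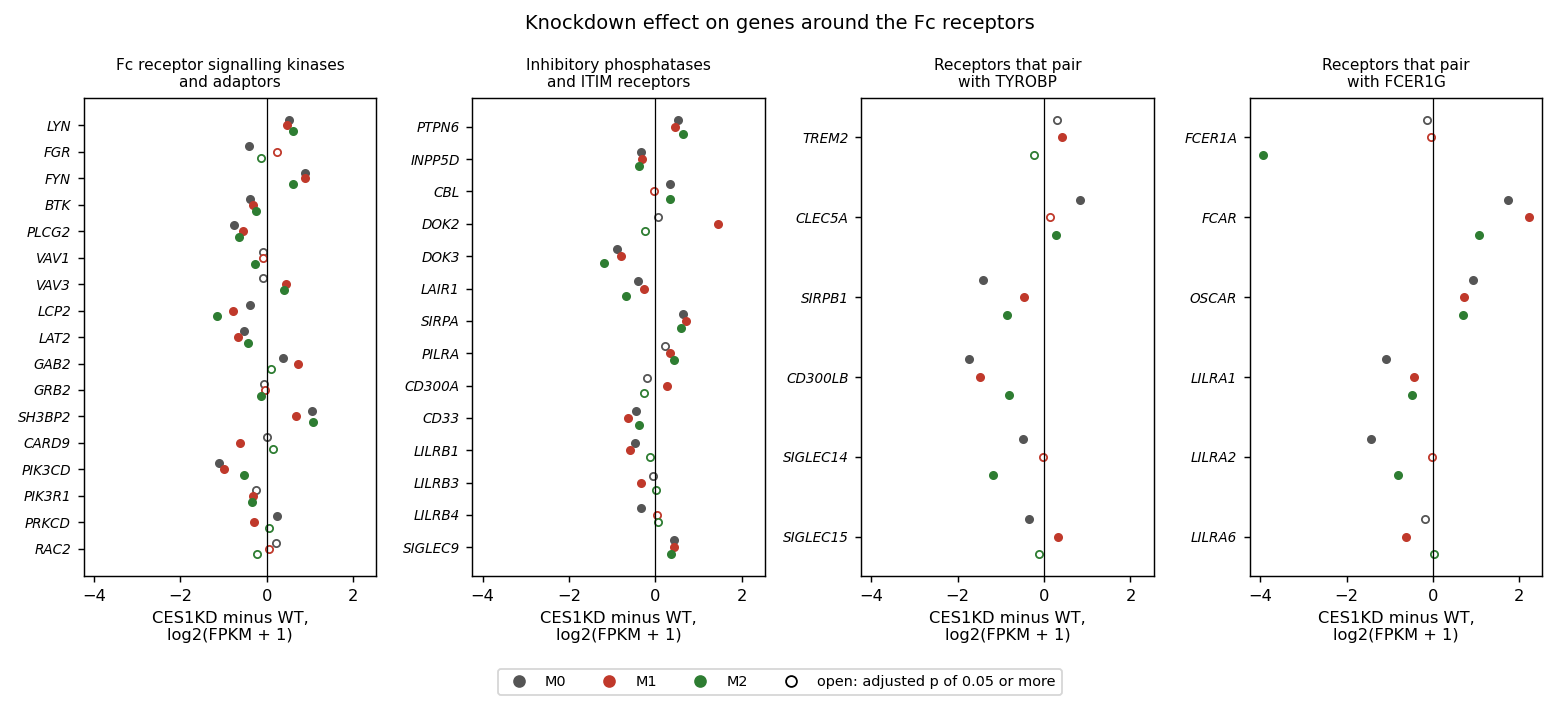
CES1KD minus WT in log2(FPKM + 1) (horizontal axis) for kept genes of 4 lists around the Fc receptors (1 kept gene is not drawn), in M0 (grey), M1 (red) and M2 (green); open points have an adjusted p of 0.05 or more (limma). Each list holds genes on both sides of 0, for example PIK3CD (-1.11 in M0) and FYN (0.89 in M0).

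Genes whose levels ran most like each member over the 24 libraries were found by Pearson r of log2(FPKM + 1), given as a description because the libraries share 6 groups. FCGR1A ran closest to ERAP1 (r = 0.976), an aminopeptidase of antigen presentation, SCPEP1 and ACTR6, and SYK to ERMP1 (0.988), HMMR and EIF4B. FCGRT ran closest to CORO1A (0.977), a coat protein of phagosomes, ULK1 and POR, and FCER1G to FLI1 (0.949), HNMT and CTSA. TYROBP was nearest to ARHGAP27 (0.971), MAGED2 and CARD16, and FCGR3A to TRPM2 (0.934), DENND3 and PIGR. The likeness was least for FCGR2A, whose nearest genes were OGFRL1 (0.849), CLDN1 and RASAL2. FCGR2B was nearest to FCER1A (0.966), the IgE-binding chain that itself uses FCER1G, and to TSPAN7 and LOX. All of these had their highest group mean in WT M2, the group on whose level the filter kept FCGR2B. Their r values, and those of FCGR2B with other members, are therefore not independent of that choice. FCER1A was at 82.4 ± 6.72 FPKM in WT M2 and 4.52 ± 0.962 FPKM in CES1KD M2, was listed at 0 in the 8 CES1KD M0 and M1 libraries, and averaged 0.107 and 0.0381 FPKM in WT M0 and M1. Among the members themselves, the 28 pairs had r from -0.78 (FCGR2B with FCGR3A) to 0.78 (FCGR3A with TYROBP), 14 above 0 and 14 below.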

How the data were processed

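Gene-level FPKM (fragments scaled to gene length and library size) were deposited by the authors as one table of 24 libraries. CASAVA, HISAT2 and DESeq are named, without role or version, in the submitters' processing notes. The sources used here do not give the counter, strand setting or genome build. The table's gene positions equal GENCODE 29 (GRCh38) for 99.9% of 58735 genes. Each value times gene length was a whole multiple of one step per library (100% of values within 1e-06 of that step), which gave fragments. The authors' library sizes followed median-of-ratios factors, at 0.87 to 0.946 of total fragments in M1 and 1.012 to 1.142 in M0 and M2.

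Genes with at least 1 FPKM in at least 4 libraries were kept. Log2(FPKM + 1) was fitted with limma 3.58.1 (R 4.3.3; 6 group means, trended empirical Bayes, two-sided), with Benjamini-Hochberg adjustment over all 13242 genes kept; called means an adjusted p under 0.05. Adding 1 shrinks log2 differences of genes at low levels. The exact permutation test of 4 against 4 libraries, whose smallest p is 0.0286, was run beside limma. The limma fit was tried first on simulated data in which few genes changed and no library stood apart. That trial therefore does not vouch for the p-values given here. Lists were described by counts and medians; single values of some list genes are not reported here. Named genes were the members, CES1, the close copies, up to 4 called genes per list and comparison with the smallest p, and the 3 protein-coding genes nearest to each member by Pearson r. The members and lists were chosen with earlier results of these data known. Sequences are from RefSeq promoter windows of GRCh38.p14, matched by symbol for all 8 genes; for genes with several windows the one nearest to the table's start was used, and for FCGRT it lay 5845 bases away.

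The alternatives were 0.1 added before log2, no filter or a filter at 5 FPKM, total or median-of-ratios scaling, limma voom on the recovered fragments, the groups compared only, a replicate block, and each library left out. Leaving CES1KD M2 replicate 2 out of comparisons that do not contain it was added after seeing the data.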

Additional observations from a re-analysis of the deposited data

Results flagged for a closer look

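Of 48 groups of 4 libraries (8 genes in 6 groups), 4 held a library far from the other 3 by Dixon's 95% limit, where chance gives about 1 in 20. CES1KD M2 replicate 2 accounted for 3 of them: FCGRT was at 18.8 FPKM there against 39.9 to 41.0 in the other 3, TYROBP at 204 against 327 to 346, and SYK at 32.9 against 26.7 to 27.6. The fourth was FCER1G in WT M2 replicate 4, at 565 FPKM. Without CES1KD M2 replicate 2 the group means were 40.4 ± 0.571, 337 ± 9.34 and 27.2 ± 0.426 FPKM (SD, n = 3) for FCGRT, TYROBP and SYK.

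The knockdown effect differed between states by a test of the difference itself (limma, adjusted over all genes) for 4 genes. In M1 against M0 the difference was 0.89 for FCER1G, 0.66 for FCGR2A and -0.38 for FCGR1A. In M2 against M0 it was 0.86 for FCGR2A and -0.47 for FCGR2B. The FCGR2B value rests on WT M2, the level on which the filter kept that gene. Its call was lost with 0.1 added before the logarithm and with limma voom on fragments.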

How the results depend on the processing

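Of 1310 values of the 8 genes under an alternative, 1239 kept their direction and side of the threshold, 35 lost a call, 15 gained one and 21 turned in sign; none of the 21 was a called difference. Under median-of-ratios scaling all 72 stayed, but that scaling repeats the one of the deposited values and so tests nothing. These 72 are among the 1239. With scaling to total fragments the values that turned were FCGR3A (-0.0049) and TYROBP (-0.00464) for the knockdown in M0 and M2, FCGR2A in WT M1 (-0.14), and FCGR2B (-0.00337) and FCGR3A (-0.04) in CES1KD M1. With one library left out, FCGR3A in the M0 knockdown comparison ranged from -0.01 to 0.08, TYROBP in that of M2 from -0.06 to 0.20 and FCGR2A in WT M1 from -0.02 to 0.15. The change of knockdown effect ranged from -0.10 to 0.00175 for FCGR2B (M1), -0.04 to 0.08 for FCER1G (M2) and -0.25 to 0.11 for FCGRT (M2). The count of members whose effect in M2 differed from M0 was 1 in place of 2 with 0.1 added before log2, with a filter at 5 FPKM (FCGR2B and FCGR3A then untested) and with limma voom. Members called in WT M2 against M0 numbered 4 in place of 7 with no filter, and 4 to 7 with one library left out. Genes called in CES1KD M2 against M0 numbered 1861 in place of 3025 when only those groups were fitted. The share of calls that were higher went, with scaling to total fragments, from 54.8% to 26.2% in WT M1, 55.7% to 25.6% in CES1KD M1, 53.9% to 34.0% in WT M2, and 36.2% to 53.0% for the change of effect in M2. Limma voom on fragments called 7259, 7583 and 7018 genes in the M0, M1 and M2 knockdown comparisons, against 7196, 7578 and 6929. The causes were not tested.

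Replicate numbers were not taken to pair libraries, because the labels do not say that they do. Of 60 same-numbered pairs, 14 had residuals correlated above 0.1 (r -0.29 to 0.413), as did 5 of the 12 pairs of knockdown and control in one state (r -0.058 to 0.413). Pairs with different numbers were not examined, so these values cannot show whether the numbers pair libraries. A replicate block left 70 of 72 calls as they were and added FCGR3A in M1 (-0.21, limma adjusted p = 0.0421) and the FCGRT change of effect in M1 (0.64, adjusted p = 0.0405). Precision for FCGR2B and FCGR3A is limited by depth, with as few as 21 and 9 fragments in a library.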
